A study of Mus musculus with 12 samples.

Results

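The nuclear genes described here encode proteins of the mitochondrial ribosome and of respiratory complex I. They were chosen by name: protein-coding genes of the RefSeq annotation of GRCm38 (mm10) whose symbol is Mrpl or Mrps followed by a digit, or starts with Nduf. The rule found 127 of 21887 protein-coding genes, of which 49 are named for the large ribosomal subunit, 29 for the small subunit, 7 for the core of complex I, 34 for its accessory subunits and 8 for its assembly factors. For each Mediator protein the 4 peak lists were merged wherever peaks shared at least 1 bp, and a merged region was given to the gene whose span was nearest, up to 100 kb away. This gave the 127 genes 300 of the 59836 MED1 regions that had a gene within reach and 302 of the 60004 MED24 regions. The nearest gene is a label of position, and no file here ties a region to the gene it acts on.

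The mitochondrial ribosome translates the few proteins that the mitochondrial genome still encodes, which are membrane subunits of the respiratory chain and of ATP synthase. Complex I, or NADH:ubiquinone oxidoreductase, takes electrons from NADH and pumps protons; some of its subunits are made by that ribosome and the rest are made in the cytosol from nuclear genes such as those described here. Mediator is the large coactivator that links transcription factors at enhancers and promoters to RNA polymerase II, and MED1 and MED24 are subunits of its middle and tail parts.

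The cells were E14tg2a mouse embryonic stem cells of 129SV background that stably carry cRAF-ErT2, a cRAF kinase fused to an oestrogen receptor domain that 4-hydroxytamoxifen (4OHT) switches on, so that ERK signalling follows. All groups had been kept in serum, LIF and 2 µM Chir99021, a GSK3 inhibitor, and then for 24 h in serum, LIF and 250 nM PD173074, an FGF receptor inhibitor. Each of 2 clones, a and b, was sampled without 4OHT (0 h) and after 2 h in 250 nM 4OHT. Chromatin was precipitated with a MED1 antibody or with anti-FLAG for MED24, which makes 4 groups of 2 peak lists. No group without the cassette and none with vehicle was analysed here, so 4OHT itself, time in culture and ERK activation cannot be told apart. The p-values below measure the spread between 2 clones, and 2 libraries against 2 cannot give a two-sided exact permutation p under 0.333. The peak names inside the MED24 lists carry the words FLAG and EP300, the second being another coactivator, and the labels, which give MED24, were followed.

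Lists of 38668 and 37483 MED1 peaks at 0 h stood against 43949 and 47305 at 2 h, and lists of 41689 and 38398 MED24 peaks against 42445 and 48931; read depth is unknown. A peak's strength is given as its percentile in its own library, where 100 is the strongest peak, ranked by −log10 p for MED1 and by the deposited score for MED24. As a check, 7 of 8 embryonic stem cell markers had a MED1 promoter peak in all 4 libraries, and 6 had a MED24 one. Esrrb had no promoter peak of either protein in any library, and Tfcp2l1 lacked the MED24 call in 2 h clone a alone. None of 4 fibroblast markers with a promoter window was called in all 4 libraries of either protein. Col3a1 and Postn had no promoter peak in any library. Twist1 had promoter peaks of both proteins in both clones at 2 h and none at 0 h. Col1a2 had the same pattern for MED24 and no MED1 promoter peak. Summed over these lists, the stem cell markers had 122 MED1 and 120 MED24 regions and the fibroblast markers 14 and 15.

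A promoter window here is the stretch from 250 bases before to 50 after a RefSeq transcription start, and 111 of the 127 genes have at least 1 such window. The sequences of 6 windows follow, from RefSeq (GRCm38.p6), 5′ to 3′ along each gene's strand. They are shown because they carry the cases to which the values return: the member promoter with the highest MED24 percentile, a strong large-subunit promoter, an accessory subunit with a match at its start, 2 genes that share a single promoter, and the promoter that was called for MED24 at 2 h only. Capitals mark exact matches, on either strand, to 6 short words: GCGCATGC (NRF1-type), CCGGAAG (ETS-type), AAGATGGC (YY1-type), GGGCGG (GC box), TGACGTCA (CRE-type) and TATAAA (the box bound by TBP).
Mrps18b, chr17:35916391-35916690, minus strand: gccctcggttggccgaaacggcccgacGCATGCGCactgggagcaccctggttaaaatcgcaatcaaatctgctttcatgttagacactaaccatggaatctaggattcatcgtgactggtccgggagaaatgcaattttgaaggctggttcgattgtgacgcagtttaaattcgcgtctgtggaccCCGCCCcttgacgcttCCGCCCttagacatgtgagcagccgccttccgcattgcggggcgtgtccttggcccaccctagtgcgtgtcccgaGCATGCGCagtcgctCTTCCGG
Mrpl51, chr6:125191950-125192249, plus strand: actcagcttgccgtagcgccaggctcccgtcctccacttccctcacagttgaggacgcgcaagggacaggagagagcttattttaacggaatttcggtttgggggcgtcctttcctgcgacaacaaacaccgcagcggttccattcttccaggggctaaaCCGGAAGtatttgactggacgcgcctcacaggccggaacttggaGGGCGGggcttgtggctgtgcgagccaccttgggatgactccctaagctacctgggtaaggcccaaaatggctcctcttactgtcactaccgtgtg
Ndufs6, chr13:73328433-73328732, minus strand: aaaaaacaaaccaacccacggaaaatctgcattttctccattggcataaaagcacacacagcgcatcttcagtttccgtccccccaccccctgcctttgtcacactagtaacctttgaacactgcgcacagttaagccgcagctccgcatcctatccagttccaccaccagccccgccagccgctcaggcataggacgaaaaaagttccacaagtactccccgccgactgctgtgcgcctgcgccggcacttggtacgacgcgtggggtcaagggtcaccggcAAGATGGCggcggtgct
Mrps11, chr7:78782881-78783180, plus strand: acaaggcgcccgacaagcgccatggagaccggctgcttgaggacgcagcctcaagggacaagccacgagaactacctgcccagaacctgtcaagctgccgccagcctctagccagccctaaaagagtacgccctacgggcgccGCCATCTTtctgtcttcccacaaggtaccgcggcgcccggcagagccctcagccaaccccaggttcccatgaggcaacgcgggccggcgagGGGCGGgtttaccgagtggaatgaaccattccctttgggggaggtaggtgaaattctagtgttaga
Mrpl46, chr7:78783040-78783339, minus strand: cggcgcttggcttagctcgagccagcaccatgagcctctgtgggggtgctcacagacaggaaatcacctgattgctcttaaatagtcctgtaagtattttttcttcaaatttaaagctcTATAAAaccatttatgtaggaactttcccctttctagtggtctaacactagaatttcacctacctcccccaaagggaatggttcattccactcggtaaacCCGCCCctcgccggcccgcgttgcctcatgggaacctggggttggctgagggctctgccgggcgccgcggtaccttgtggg
Ndufs5, chr4:123718137-123718436, minus strand: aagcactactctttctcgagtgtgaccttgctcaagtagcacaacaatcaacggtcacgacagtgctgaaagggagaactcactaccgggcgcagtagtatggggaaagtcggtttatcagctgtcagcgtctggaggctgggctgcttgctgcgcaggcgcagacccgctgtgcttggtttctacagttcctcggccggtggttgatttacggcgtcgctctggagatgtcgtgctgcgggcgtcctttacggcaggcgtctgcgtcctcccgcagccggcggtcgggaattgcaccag
Mrps18b has 2 NRF1-type matches, the first far upstream and the last just before an ETS-type match that ends the window, and 2 GC boxes. Mrpl51 has 1 ETS-type match upstream and 1 GC box nearer its start, Ndufs6 has 1 YY1-type match downstream of its start, and Ndufs5 has none of the 6 words. The Mrps11 and Mrpl46 windows overlap, since the 2 starts lie 42 bp apart on opposite strands.

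Over the 111 genes, 13 held the NRF1-type word in any window (11.7%, against 3.94% of all 17492 genes with a window), 32 the ETS-type word (28.8% against 12.9%) and 20 the YY1-type word (18% against 3.57%). NRF1, the ETS factor GABP and YY1 are transcription factors long known for nuclear genes of mitochondrial proteins, and a match is only a run of letters. At least 1 of these 3 words stood in the windows of 56 member genes, 50.5%, against 18.7% of all genes. Among called promoters the shares were higher than among all: of the 6868 genes with a peak over the promoter in all 8 libraries, 25.8% held the ETS-type word, 7.40% the NRF1-type and 6.65% the YY1-type. The ETS-type word was in 37.7% of the mitoribosomal genes and 14.3% of the complex I genes, whereas the NRF1-type word (11.6% and 11.9%) and the YY1-type word (17.4% and 19%) were about as frequent in both. GC boxes were in 49.5% of member genes, 49.2% of all genes and 75.1% of those 6868. CRE-type words were in 4.50%, 2.54% and 4.75%, and TATA boxes in 8.11%, 14.8% and 7.51%. No member window held an ETS-type and a YY1-type match that shared letters.

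Nearly every member promoter had peaks of both proteins before and after 4OHT. MED1 peaks lay over the promoters of 109 and 106 of the 111 genes at 0 h and of 109 and 103 at 2 h (clones a and b), a mean of 107.5 ± 2.12 against 106 ± 4.24 (SD, n = 2). MED24 peaks lay over 106 and 103 at 0 h and 105 and 109 at 2 h, 104.5 ± 2.12 against 107 ± 2.83. The groups overlapped for both proteins (exact permutation p = 1 and 0.667). Over all genes the promoter share ran from 50.2% to 51.9% for MED1 and from 46.4% to 53.3% for MED24. MED1 was called over 101 of the 111 promoters in all 4 libraries, where the share over all genes was 44.0%, and MED24 over 100, where it was 41.7%. Both proteins were called in all 8 libraries at 94 promoters.

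By role, MED1 was called in all 4 libraries at 38 of 43 large-subunit promoters, 25 of 26 small-subunit promoters, all 5 core complex I promoters with a window, 26 of 30 accessory promoters and all 7 assembly-factor promoters with a window. The MED24 counts were 41, 24, 5, 23 and 7. Only Ndufb4b had a window and no peak in any library. Ndufb4b and Ndufb4c, gene models named as copies of Ndufb4, were also the only 2 of the 127 genes with no region of either protein. At 9 promoters MED1 was called in some libraries only, and 5 of them, Mrpl34, Mrpl36, Mrpl37, Mrps25 and Ndufb4, lacked the call in 2 h clone b alone. The other 4 were Mrpl20, Mrpl42, Ndufs5 and Ndufv3. MED24 was called in some libraries only at Mrpl17, Mrps24, Mrps26, Ndufa3, Ndufa8, Ndufa13 and Ndufb11. Over the Ndufs5 promoter it was called at 2 h alone, at 35.2 and 51.7, and at Ndufv3 a MED24 region called at 2 h alone reached the window in clone b only, at 46.2. At Mrpl20 the MED1 region was called in all 4 libraries but reached the window in 2 of them, at 90.1 and 89.0 at 0 h and 76.8 and 94.0 at 2 h, and its MED24 region, which never reached the window, at 38.0 and 48.2, then 6.02 and 85.7. Genes with no promoter entry, 16 in all, include Mrpl4, Mrpl13, Mrpl15, Mrpl19, Mrpl38, Mrpl54, Mrps28, Mrps34, Mrps35, Ndufs1, Ndufa2, Ndufa4l2, Ndufb4c, Ndufb9 and Ndufaf6.

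**Figure D1:**
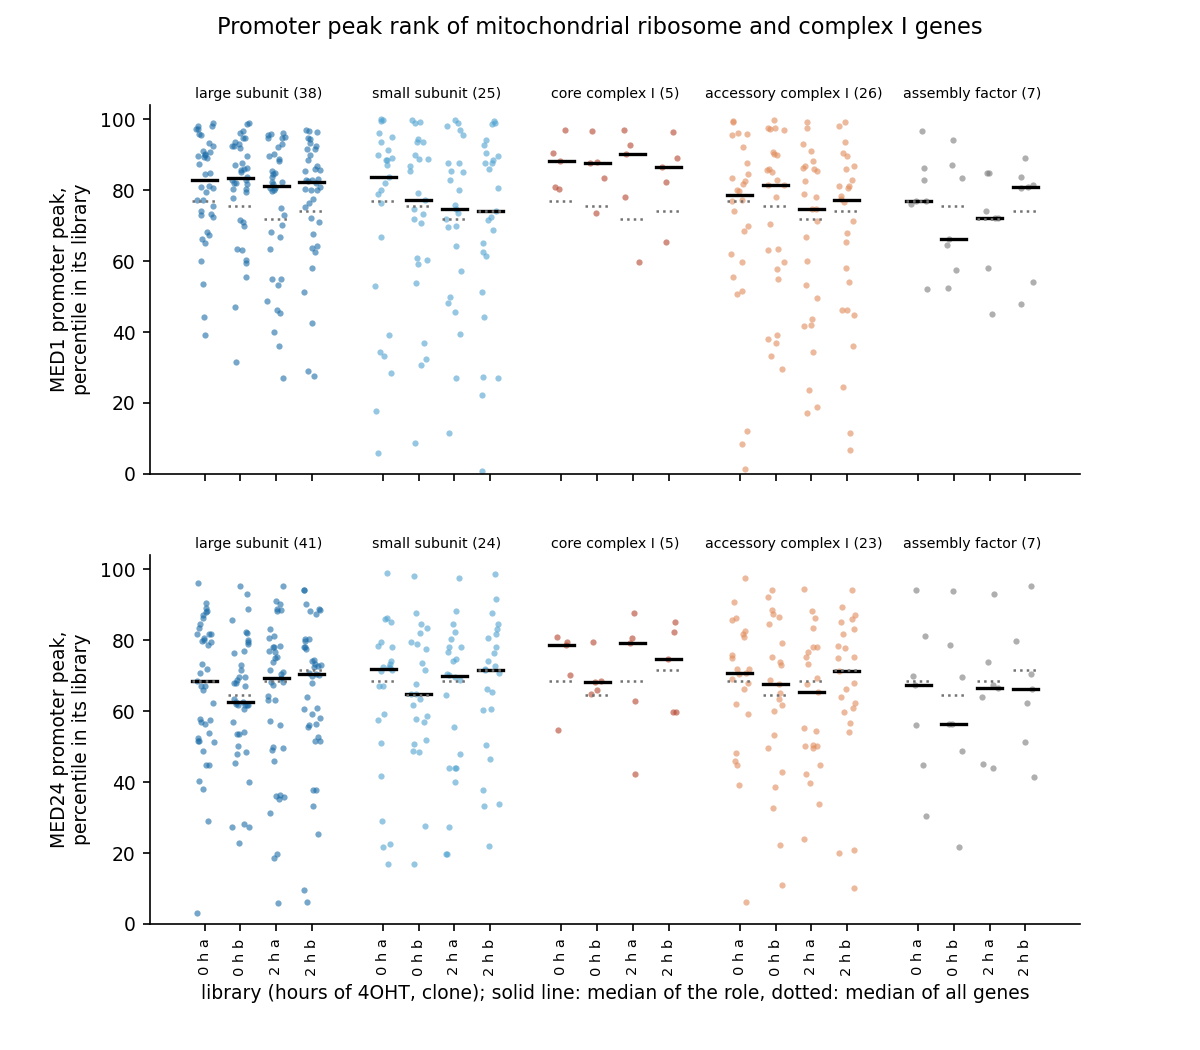
Each point is 1 gene's promoter peak as a percentile within its library (y axis, 100 strongest), by role and library (x axis), for promoters called in all 4 libraries of the protein. Numbers in brackets count the genes, solid lines are medians and dotted lines the medians of all genes. MED1 medians of the large subunit lie between 81.1 and 83.3 in every library, and single genes range from near 0 to near 100.

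The typical member promoter ranked somewhat above the typical promoter for MED1 and close to it for MED24. Over the 101 MED1 promoters the median percentile was 81.2 and 82.9 at 0 h and 78.1 and 80.7 at 2 h, where all genes called in all 4 libraries had 77.1 and 75.5, then 71.9 and 74.2. The MED1 median fold enrichment was 8.50 and 8.38 at 0 h and 8.31 and 8.40 at 2 h, against 7.77, 7.62, 7.68 and 7.68 over all genes. Of the 101, 66 had a mean percentile above the median of all genes. At 90 or more were 21, a share that was not counted over all genes. Over the 100 MED24 promoters the median was 70.8 and 65.0 at 0 h and 68.5 and 70.6 at 2 h, against 68.6, 64.5, 68.6 and 71.5 over all genes, and 52 lay above the median of all genes. Percentiles of the 2 proteins rest on different measures. Across the 94 shared promoters the mean percentiles of MED1 and MED24 had a Spearman rho of 0.70, a description over promoters of the same cells.

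Among large-subunit genes, Mrpl51 had the highest MED1 promoter percentile, 98.2 and 98.9 at 0 h and 95.8 and 96.4 at 2 h, and the highest for MED24, 96.1 and 95.2 at 0 h and 91 and 94 at 2 h. Its window is the second sequence above. Mrpl12, which besides its place in the ribosome is known to bind the mitochondrial RNA polymerase, had MED1 at 98.9 and 98.6 at 0 h and 96.2 and 93.4 at 2 h. Its MED24 values were 88 and 81.9 at 0 h and 88.2 and 80.4 at 2 h. Mrpl52 came second for MED24, 86.4 and 93.1 at 0 h and 95.3 and 94.2 at 2 h. MED1 stood there at 89.1 and 92.4 at 0 h and 95.1 and 94.6 at 2 h. In Mrpl52 the 2 h libraries were above both 0 h libraries for both proteins, and in Mrpl12 both MED1 libraries of 2 h were below those of 0 h.

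Among small-subunit genes, Mrps5 had the highest MED1 percentile of all members, 99.9 and 99.9 at 0 h and 99.8 and 99.4 at 2 h, with fold enrichments of 41 and 32.2 at 0 h and 44.2 and 24 at 2 h. The same promoter stood lower for MED24, 72.2 and 71.7 at 0 h and 70.2 and 65.5 at 2 h. Mrps7 was next for MED1, 99.8 and 99.2 at 0 h and 98.8 and 98.6 at 2 h. MED24 stood there at 78 and 83.4 at 0 h and 70.6 and 84.7 at 2 h. Mrps18b, whose window is the first sequence above, was near the top for both, 99.4 and 98.9 at 0 h and 98.2 and 98.8 at 2 h for MED1. It stood at 98.9 and 98.1 at 0 h and 97.6 and 98.5 at 2 h for MED24, so that the 2 h values lay just below those of 0 h for MED1 and overlapped them for MED24. At the other end, Mrps12 was among the 5 lowest for both proteins and, for MED1, was higher at 2 h in both clones: 17.8 and 8.80 at 0 h and 57.2 and 44.4 at 2 h, a change of 39.4 and 35.6 percentile points. Its MED24 values, 29 and 27.7 at 0 h and 19.8 and 46.5 at 2 h, overlapped between times. Its promoter region is equally near Sars2, a mitochondrial seryl-tRNA synthetase whose start lies 147 bp from that of Mrps12 on the other strand. Mrps17 was low for MED1, 6.0 and 32.3 at 0 h and 39.5 and 27.2 at 2 h. It was higher for MED24, 74.1 and 87.7 at 0 h and 64.6 and 60.4 at 2 h. Mrps26 was the other small-subunit gene among the 5 lowest for MED1, 28.6 and 54 at 0 h and 11.6 and 27.4 at 2 h.

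Of the core complex I genes, which carry the flavin and iron-sulfur clusters, Ndufs7 ranked highest for both proteins. Its MED1 percentiles were 96.9 and 96.7 at 0 h and 97.1 and 96.4 at 2 h. Its MED24 percentiles were 78.5 and 79.6 at 0 h and 87.8 and 82.4 at 2 h, so that both 2 h values were above both 0 h values. Ndufs3 followed. MED1 stood there at 88.2 and 87.5 at 0 h and 92.7 and 89 at 2 h and MED24 at 79.5 and 68.3 at 0 h and 79.3 and 85.2 at 2 h. Ndufs8 was lower at 2 h in both clones for both proteins, with MED1 at 81 and 73.5 at 0 h and 59.9 and 65.5 at 2 h. MED24 was at 81 and 68.5 at 0 h and 42.3 and 59.7 at 2 h.

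Among the accessory genes, Ndufa4 had the highest MED1 percentile, 99.4 and 99.7 at 0 h and 99.3 and 99.1 at 2 h. MED24 stood there at 82.5 and 88.6 at 0 h and 76.8 and 89.3 at 2 h; its product was first assigned to complex I and is now counted with cytochrome c oxidase. Ndufa7 was next, 99.2 and 97.5 at 0 h and 97.5 and 98 at 2 h for MED1. It stood at 97.5 and 94.1 at 0 h and 94.5 and 94.3 at 2 h for MED24. Its start lies 10 bp from that of Rps28, a gene of the cytosolic ribosome, so the peak cannot be given to either gene alone. Ndufb1 came second for MED24, 90.8 and 92.2 at 0 h and 83.6 and 83.3 at 2 h. The lowest accessory promoters called in all 4 MED1 libraries were Ndufb11, 12 and 33.3 at 0 h and 18.8 and 6.67 at 2 h, and Ndufa8, 8.57 and 29.5 at 0 h and 17.1 and 36 at 2 h. The lowest for MED24 was Ndufb10, 6.20 and 11 at 0 h and 23.9 and 19.9 at 2 h. Ndufs6, a zinc-binding accessory subunit whose window is the third sequence above, lay in between: 68.4 and 85.6 at 0 h and 78.1 and 65.3 at 2 h for MED1. Its MED24 values were 69.2 and 63.3 at 0 h and 67.8 and 59.7 at 2 h.

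Of the assembly factors, which help to build complex I without staying in it, Ndufaf3 had the highest values: 96.6 and 94.2 at 0 h and 84.7 and 83.8 at 2 h for MED1. It also led for MED24, 94.1 and 93.9 at 0 h and 93.1 and 95.4 at 2 h. Both clones were lower at 2 h for MED1, and the MED24 values overlapped. Ndufaf1 was second for MED1, 76.2 and 83.5 at 0 h and 84.9 and 89.1 at 2 h. Its MED24 values were 30.3 and 48.8 at 0 h and 73.8 and 70.4 at 2 h, higher at 2 h in both clones by 43.5 and 21.6 points. Ndufaf4 was second for MED24, 81.3 and 78.5 at 0 h and 45.1 and 79.9 at 2 h.

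The other genes among the 5 lowest for MED24 were Mrps2, Mrpl37 and Mrpl41. Mrps2 stood at 16.9 and 56.9 at 0 h and 27.3 and 33.9 at 2 h. Mrpl37 stood at 67 and 27.3 at 0 h and 36.4 and 6.31 at 2 h, and Mrpl41 at 56.4 and 28.3 at 0 h and 18.6 and 37.8 at 2 h. For Mrps2 and Mrpl9, chosen after the values were seen, the MED1 mean of 4 libraries was 46.7 and 49.2 points above the MED24 mean, and for Mrps17 it was 45.5 points below it (80.5, 86.8 and 26.2 for MED1 against 33.8, 37.5 and 71.7 for MED24). Of the 94 promoters called in all 8 libraries, 76 had the higher mean percentile in MED1. That share was not counted over all genes. Over all genes called in all 4 libraries of a protein, the median of the mean percentiles was also higher for MED1, 73.2 against 66.3 for MED24.

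Several member genes share a promoter with another gene. Of the 111, 37 (33.3%) have the start of a gene on the other strand within 1 kb, head to head, against 8.48% of all genes. Of these 37 promoters 97.3% were called for MED1 in all 4 libraries and 94.6% for MED24, against 87.8% for each protein at the other member promoters. Over all genes the shares were 85.8% and 83.7% head to head, and 40.2% and 37.8% otherwise. In 2 pairs both genes are members. The first is Mrps11 with Mrpl46, printed above, whose single peak covers the starts of a small-subunit and a large-subunit gene at 39.1 and 60.2 at 0 h and 27.2 and 51.2 at 2 h for MED1. MED24 stood there at 57.4 and 61.7 at 0 h and 19.8 and 70.6 at 2 h. The second is Mrpl47 with Ndufb5, a large-subunit gene and an accessory gene 308 bp apart. MED1 stood there at 74.2 and 63.3 at 0 h and 53.1 and 58 at 2 h and MED24 at 71.8 and 61.7 at 0 h and 49.5 and 64.1 at 2 h. For these 4 genes the percentile belongs to the pair.

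MED1 summits, the highest points of the peaks, lay close to the start of member genes. The median summit was 28 and 18.5 bp downstream of the start at 0 h and 19 and 25 bp at 2 h, with 87.7% to 89.7% of member promoter peaks within 250 bp of it, against 76.6% to 77.5% over all genes. In head-to-head member genes the median lay upstream, toward the partner, by 16 to 40 bp, and in the others it lay 29 to 51 bp downstream. The MED24 lists give no summit.

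**Figure D2:**
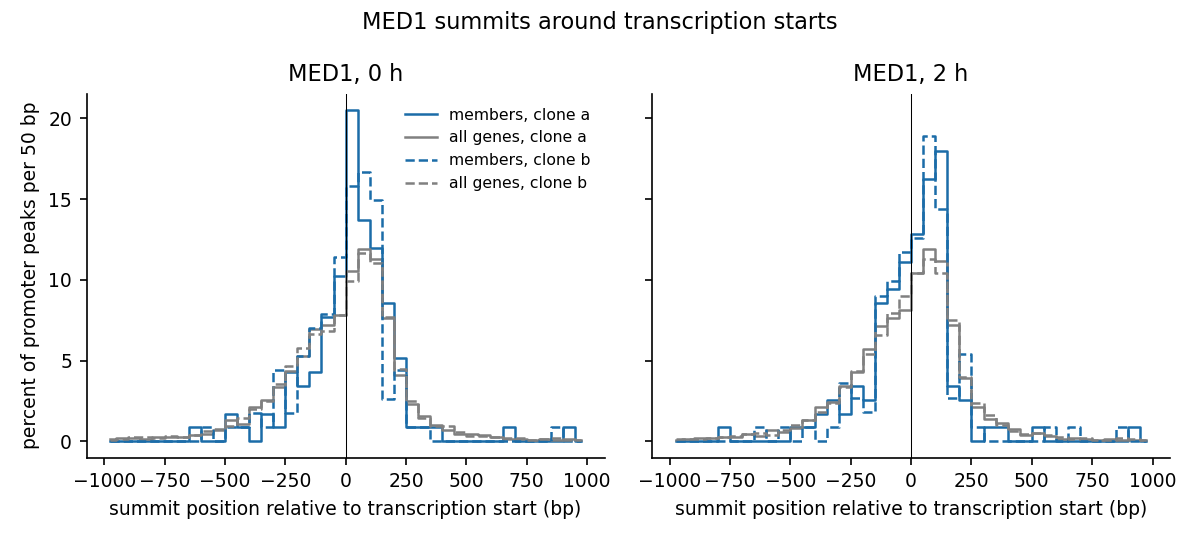
Share of MED1 promoter peaks (y axis, percent per 50 bp) by the distance of the summit from the transcription start in bp (x axis, positive downstream), for member genes and all genes, in each clone at 0 h and 2 h. Member summits pile up within 250 bp of the start, 87.7% to 89.7% of them, more narrowly than those of all genes.

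The comparison of 2 h with 0 h gives the peaks called at 1 time and not at the other. Over member regions as a whole, more were called at 2 h, and the added ones lay away from promoters. MED1 was called at 214 and 206 member regions at 0 h and at 227 and 231 at 2 h, 210 ± 5.66 against 229 ± 2.83 (SD, n = 2), a difference of 19 with no overlap (exact permutation p = 0.333, the smallest possible). MED24 was called at 213 and 203, then at 216 and 234, 208 ± 7.07 against 225 ± 12.7, a difference of 17 with no overlap (exact permutation p = 0.333). Clone a gave 3 and clone b 31. At member promoters the MED1 counts were 111 and 110, then 111 and 107, and away from them 103 and 96, then 116 and 124. The MED24 counts were 106, 105, 106 and 108 at promoters and 107, 98, 110 and 126 away from them.

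The 2 h lists were longer as a whole, and the member regions made up a smaller part of them. They were 0.639% and 0.636% of all assigned MED1 regions called at 0 h and 0.595% and 0.560% at 2 h, and 0.588% and 0.612%, then 0.580% and 0.540%, for MED24 (exact permutation p = 0.333 for each, no overlap). With list length held equal, by taking the 10000 highest ranked peaks of each library, the MED1 difference turned: 101 and 93 member regions at 0 h against 79 and 85 at 2 h, with peaks over 73 and 65 member promoters against 52 and 57. The MED24 counts under that setting were 65, 59, 68 and 61 regions. Counts over all regions and all promoters were not made under that setting, so these numbers stand without a background. With the full lists, the mean percentile of all retained MED1 promoter regions changed by -2.82 points from 0 h to 2 h.

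Region by region, a gain was counted where both 2 h libraries and neither 0 h library had a peak, a loss for the reverse, and a retained region where all 4 did. For MED1, 31 of the 300 member regions were gained (10.3%, against 17.0% of all assigned regions), 9 were lost (3%, against 6.53%) and 163 were retained (54.3%, against 31.9%). For MED24, 26 of 302 were gained (8.61%, against 15.8%), 11 were lost (3.64%, against 8.30%) and 161 were retained (53.3%, against 33.4%). Promoter windows held 37.3% of member MED1 regions and 35.8% of member MED24 regions, against 16.1% and 16% of all assigned regions. At promoters 95.5% of MED1 and 95.4% of MED24 member regions were retained, against 78.9% and 74.1% of all. Elsewhere 29.8% and 29.9% were retained, against 22.8% and 25.6%. How far position bears on the retained shares was not tested. With 3 libraries in place of 4 a gain or loss needs fewer calls: without 2 h clone a the MED1 gains were 52, and without 2 h clone a or b the MED24 gains were 54 and 42. Without 0 h clone a, 0 h clone b or 2 h clone a the MED1 losses were 27, 30 and 19, and without 0 h clone a, 0 h clone b or 2 h clone b the MED24 losses were 27, 32 and 19. Counted within each clone, with the replicate block, a mean of 54 MED1 and 53 MED24 member regions were gained and 35 and 36 lost.

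At member promoters 0 of 112 MED1 regions were gained and 0 lost, where the shares over all promoter regions were 2.53% and 1.35%, and 2 of 108 MED24 regions were gained and 0 lost, where the shares were 5.26% and 0.935%. Away from promoters 31 of 188 MED1 regions were gained (16.5%, against 19.8%) and 9 lost (4.79%, against 7.53%), and 24 of 194 MED24 regions were gained (12.4%, against 17.8%) and 11 lost (5.67%, against 9.71%). Each member share of gained and lost regions was below the share set beside it, but the member counts are small and the differences were not tested. The positions are not quite alike, since member regions were split by windows of member genes and all regions by windows of any gene. Regions at the starts of the 16 member genes without a window counted as away from promoters. Gained MED1 regions were 16 of 184 near mitoribosomal genes (8.70%) and 15 of 118 near complex I genes (12.7%), and gained MED24 regions 11 of 173 (6.36%) and 15 of 131 (11.5%); the differences between the 2 gene groups were not tested.

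**Figure D3:**
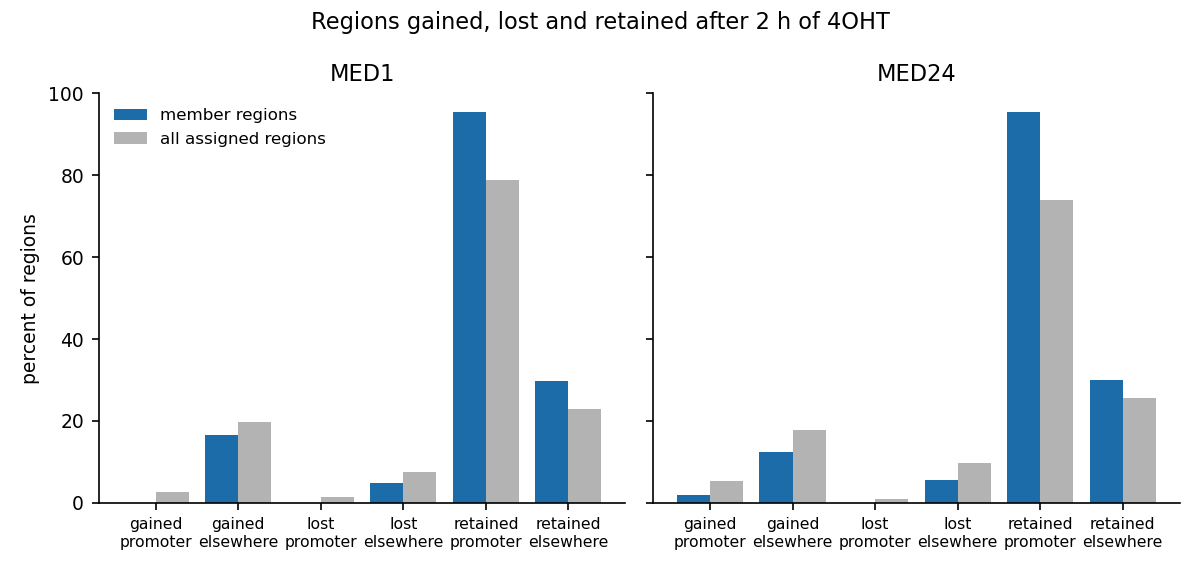
Percent of regions (y axis) that were gained, lost or retained at 2 h, at promoter windows and elsewhere (x axis), for member regions (blue) and all assigned regions (grey). Windows are those of member genes for the blue bars and of any gene for the grey bars. No MED1 region at a member promoter was gained or lost, and 95.5% of MED1 and 95.4% of MED24 member promoter regions were retained.

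The only member promoter with MED24 at 2 h in both clones and at 0 h in neither was that of Ndufs5, an accessory subunit of complex I whose window is the last sequence above. MED24 stood at 35.2 and 51.7 there at 2 h. MED1 was called over this promoter in a single library, 2 h clone a, at 38.0, so MED1 did not meet the rule for a gain there. At Ndufv3, another accessory gene, a MED24 region beside the start was gained at 14.4 and 46.2, but its peak reached the promoter window in clone b only; the region lies 0.026 kb from Wdr4. The MED1 region at Ndufv3 was called in 3 libraries, at 17.8, 32.3 and, for 2 h clone a, 14.7.

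The gained regions, which for MED24 count the 2 at promoters, included a few of the stronger peaks of their libraries. MED1 gained regions had a median percentile of 62.0 at 2 h, from 18 to 97.8, and 4 of the 31 reached 90 in both clones. MED24 gained regions had a median of 54.8, from 16.4 to 96.3, and 2 of the 26 reached 90 in both clones. Medians and shares at 90 or more were not counted over all gained regions. Of the 31 MED1 gained regions, 20 (64.5%) overlap a MED24 gained region, which is 76.9% of the 26. None of the 31 overlaps a MED24 lost region. The same overlap over all gained regions was not counted, so these shares stand without a background. A total of 18 genes had a gained region for both proteins. The comparison covers the same cells, not the same libraries.

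Ndufs4, an accessory subunit needed to finish complex I and the gene of a Leigh-syndrome mouse model, had 3 gained regions of 12 for MED1 and 3 of 15 for MED24, at the same places. The strongest, chr13:114254648-114255259, lay 32.5 kb outside the gene and was called at 94.3 and 94.4 for MED1, with fold enrichments of 13.7 and 12, and at 87.5 and 87.9 for MED24. Another, chr13:114232109-114232562, lay 55.2 kb outside at 78.5 and 68.1, and the last, chr13:114304432-114305038, inside the gene at 62.2 and 69.1. The strongest region near this gene at 0 h, chr13:114278252-114279489, was retained at lower rank: 98.5 and 98.8 at 0 h against 84.1 and 83.4 at 2 h for MED1, and 99.3 and 99.5 against 92.5 and 86.4 for MED24. The promoter of Ndufs4 stayed called in all 8 libraries, 80.1 and 81.5 at 0 h and 66.9 and 80.6 at 2 h for MED1. The next gene to the strongest gained region is Arl15, 97.2 kb away.

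Ndufs1, which carries the largest number of iron-sulfur clusters among the core subunits, had 2 gained regions for each protein, side by side. The stronger, chr1:63134363-63135759, was 7.83 kb from the gene, at 92.3 and 94.6 for MED1 and 91.5 and 92.0 for MED24. The other, chr1:63132978-63133747, was at 67.0 and 75.8 for MED1 and 36.1 and 78.8 for MED24. Ndufa4 gained a region inside its span, chr6:11900826-11901491, at 76.9 and 66.7 for MED1 and 86.1 and 77.0 for MED24, while its promoter stayed above the 99th percentile for MED1.

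Among mitoribosomal genes, Mrps9 had 3 gained MED1 regions of 5, at 38.8 and 50.4, 33.5 and 63.1, and 21.6 and 35. For MED24 the first of these was gained, at 23.1 and 50.9, and the second was retained with a higher rank at 2 h, 6.55 and 24.5 against 60.7 and 54.7. Mrps21 had 2 gained MED1 regions of 5 inside its span, at 32.7 and 47.3 and at 55.3 and 68.6, neither of them gained for MED24. Mrps28 had 2 gained MED24 regions, of which chr3:8866116-8866955, inside the gene, was at 95.9 and 96.6. The MED1 region at the same place was gained too, at 96.3 and 97.2, with fold enrichments of 15.8 and 19.5. The region chr13:118339056-118339837, 40.3 kb from Mrps30 and chosen after its values were seen, had the highest percentiles of any gained member region for MED1, 97.9 and 97.7, with 87.9 and 94.2 for MED24. The remaining gained regions named by number of gains were single ones at Mrpl11 (51.5 and 34.2 for MED1, 29.5 and 20.9 for MED24), Mrpl14 (38.8 and 47.3, then 5.02 and 31.2) and Mrpl19 (35.5 and 52.9, then 46.0 and 55.5).

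Further genes had a region gained for both proteins at the same place. Near Ndufa12, an accessory subunit, it was called at 78.3 and 80.0 for MED1 and 73.5 and 80.2 for MED24, 21.4 kb from the gene. Inside Ndufaf2, an assembly factor that stands in for another subunit during assembly, it was at 85.9 and 72.5 for MED1 and 70.2 and 73.5 for MED24. Near Ndufb4, 32.9 kb away, it was at 69.5 and 78.5 for MED1 and 80.1 and 80.5 for MED24. Inside Mrpl39 it was at 75.1 and 69.9 and at 77.7 and 73.0, and near Mrpl51 at 66.1 and 63.4 and at 60.3 and 65.3. Weaker ones stood near Ndufb3 (72.6 and 52.9 for MED1, 38.0 and 35.4 for MED24) and in Mrps27 (53.7 and 31.0, then 15.6 and 21.9). MED1 alone was gained near Mrpl42, Mrpl48, Mrpl52, Mrps21, Ndufa6, Ndufa8 and Ndufv2, and MED24 alone near Mrps18a, Ndufa10, Ndufs5 and Ndufv3.

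**Figure D4:**
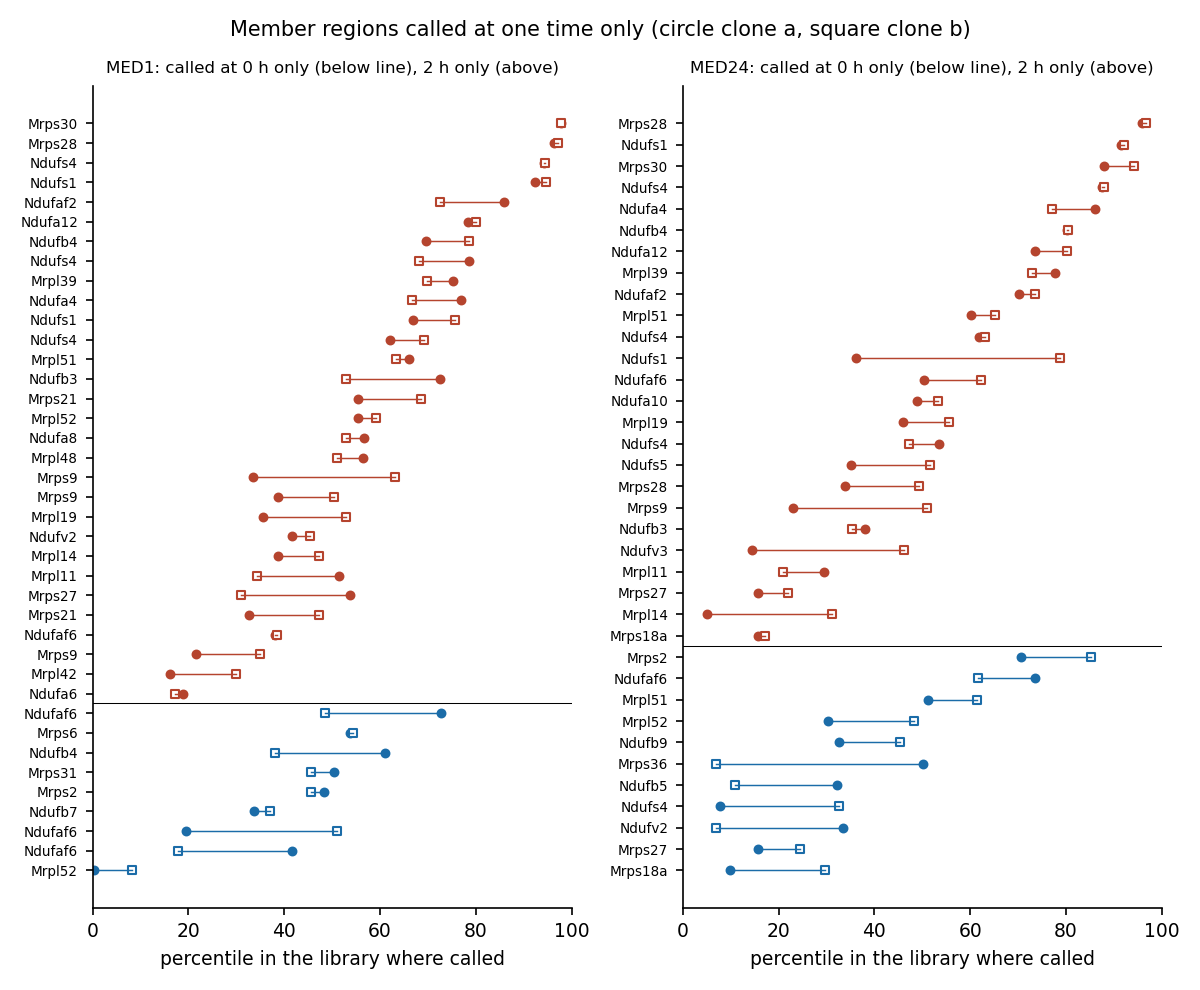
Member regions called at 1 time only, except those of 1 gene not reported here, labelled by their member gene (y axis), with the percentile in the libraries where they were called (x axis); circles are clone a, filled, and squares clone b, open. Regions near Mrps30, Mrps28, Ndufs4 and Ndufs1 are the 4 MED1 gains at or above 90 in both clones, and no lost region reaches 90.

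Lost regions were fewer and of lower rank, with a median percentile of 47.0 at 0 h for MED1 and 28.5 for MED24. Ndufaf6, an assembly factor of complex I, had 3 of the 9 MED1 losses, at 72.7 and 48.5, 19.5 and 51, and 41.6 and 17.9, and 1 gain at 38.0 and 38.5. Of its 12 MED1 regions, chr4:11042598-11043859 was retained at lower rank, 84.9 and 89.8 against 52.6 and 61.3, and chr4:11074807-11076199, inside the gene, at higher rank, 41.7 and 3.70 against 74.1 and 63.4. Losses in both proteins overlapped at 3 places, 33.3% of the MED1 losses and 27.3% of the MED24 losses: inside Ndufaf6 (chr4:11052873-11053417, MED24 at 73.6 and 61.7), inside Mrps2 (chr2:28470416-28471087, MED1 at 48.4 and 45.5, MED24 at 70.7 and 85.2) and 0.571 kb from Mrpl52 (chr14:54430321-54430779, MED1 at 0.225 and 8.17, MED24 at 30.3 and 48.2). The overlap between proteins over all lost regions was not counted. The Mrpl52 region is 0.819 kb from Mmp14. Single MED1 losses stood at Mrps6 (53.8 and 54.5), Mrps31 (50.3 and 45.6), Ndufb4 (60.9 and 38.2) and Ndufb7 (33.7 and 37.0). Single MED24 losses stood at Mrpl51 (51.1 and 61.3), Mrps18a (9.84 and 29.7), Mrps27 (15.7 and 24.5) and Mrps36 (50.1 and 6.88). Further single MED24 losses were near Ndufs4 (7.88 and 32.7), Ndufv2 (33.5 and 6.88), Ndufb5 (32.2 and 11.0) and Ndufb9 (32.6 and 45.3). Mrps36 carries a ribosomal name, and its product is now placed with the 2-oxoglutarate dehydrogenase complex.

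In regions that were retained, ranks were lower at 2 h for MED1. The mean percentile of the 163 retained MED1 member regions was 72.7 and 72.5 at 0 h and 67.2 and 68.6 at 2 h, 72.6 ± 0.202 against 67.9 ± 0.949 (SD, n = 2), a difference of -4.70 points with no overlap (exact permutation p = 0.333). All retained MED1 regions had 66.5 and 65.4, then 61.9 and 64.3, so that the members' lead over them was 6.21 and 7.04 at 0 h and 5.35 and 4.26 at 2 h (exact permutation p = 0.333). Ranked only among retained regions, a setting chosen after seeing the data, the MED1 difference was -2.40. List length still enters there, since a retained region needs a call in all 4 lists. For the 161 retained MED24 member regions the mean was 67.4 and 64.9, then 63.8 and 67.0, 66.1 ± 1.73 against 65.4 ± 2.25, with opposite directions in the 2 clones (exact permutation p = 0.667). At retained promoters the MED24 lead of members over all genes was 3.36 and 4.81 points at 0 h and 0.153 and 0.167 at 2 h (exact permutation p = 0.333). That of MED1 was 5.26 and 5.84, then 5.86 and 3.88 (exact permutation p = 1).

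At single promoters the MED1 percentile was lower at 2 h in both clones for 57 of 101 members, 56.4%, where the share over all genes was 44.5%, and higher in both for 17, 16.8%, against 17.5%. The MED24 percentile was lower in both clones for 27 of 100 members, against 24.6% of all genes, and higher in both for 24, against 36.8%. In the roles, MED1 was lower in both clones at 23 of 38 large-subunit, 14 of 25 small-subunit, 3 of 5 core, 13 of 26 accessory and 4 of 7 assembly-factor promoters. The MED24 counts were 11 of 41, 6 of 24, 1 of 5, 8 of 23 and 1 of 7.

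Of the 94 promoters called in all 8 libraries, 17 were lower in both clones of both proteins: Mrpl9, Mrpl16, Mrpl43, Mrpl45, Mrpl50, Mrpl51, Mrps5, Mrps9, Mrps18a, Mrps30, Mrps36, Ndufa10, Ndufab1, Ndufaf5, Ndufb7, Ndufb8 and Ndufs8. Ndufb8 had the widest of these MED1 shifts in clone b, 70.0 and 81.6 at 0 h and 43.5 and 11.5 at 2 h for MED1. Its MED24 values were 44.7 and 73.9 at 0 h and 33.9 and 20.9 at 2 h. Mrps30 had MED1 at 89 and 86.9 at 0 h and 74.6 and 61.6 at 2 h and MED24 at 86.1 and 84.7 at 0 h and 69.7 and 71.9 at 2 h, a lower promoter rank beside the distant gain described above. A further 8 were higher in all: Mrpl10, Mrpl49, Mrpl52, Mrpl53, Mrps10, Mrps16, Ndufa9 and Ndufaf1. For the 17 and the 8, the shares over all genes called in all 8 libraries were not counted, so neither can be called a trait of the members. Mrps16 had MED1 at 79.9 and 71.9 at 0 h and 85.3 and 85.9 at 2 h. Its MED24 values were 21.7 and 50.7 at 0 h and 84.6 and 74.2 at 2 h, and Ndufa9 had MED1 at 77.3 and 63 at 0 h and 85.3 and 81.2 at 2 h. MED24 at Ndufa9 was at 80.9 and 60.1 at 0 h and 88.1 and 77.9 at 2 h. Shifts of the 2 clones followed each other weakly across promoters, with a Spearman rho of 0.27 over 101 for MED1 and 0.13 over 100 for MED24, given as a description of how far the clones differ.

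**Figure D5:**
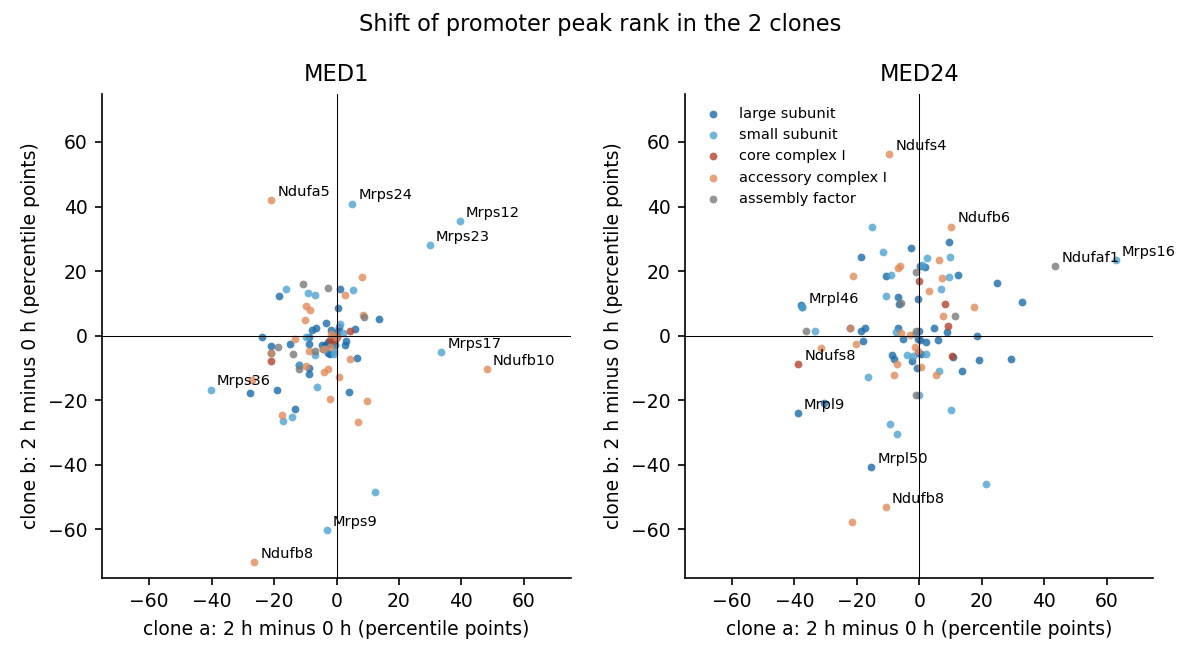
Change of each member promoter's percentile from 0 h to 2 h in clone a (x axis) and clone b (y axis), in percentile points, for promoters called in all 4 libraries; colours are roles. For MED1 57 of 101 points lie in the lower left and 17 in the upper right; for MED24 27 of 100 and 24.

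The retained regions with the widest shift in both clones were mostly away from promoters. For MED1 the lower ones were near Ndufa9 (chr6:126815197-126815616, 84.1 and 71.7 against 11.8 and 8.25) and Ndufb5 (chr3:32762737-32763590, 92.9 and 90.2 against 35.7 and 29.9). The others were near Mrps23 (80.3 and 61.7 against 23.6 and 1.85, a region that also lies in Cuedc1), Mrpl4 (66.8 and 61.9 against 16.2 and 7.31) and Mrpl45 (74.7 and 73.6 against 29.9 and 22.2). The Ndufa9 and Mrpl4 regions were lower for MED24 as well, 75.9 and 61.7 against 31.3 and 6.31, and 63.9 and 65.4 against 36.1 and 7.21. At Ndufa9 the promoter, named above, was higher at 2 h while the region 6.25 kb from the gene was lower.

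The MED1 regions that were higher at 2 h included 1 of the 4 promoter windows of Mrpl48 (chr7:100590646-100591579, 36.8 and 29.5 against 92.9 and 88.3) and a region 14.6 kb from Mrpl42 (2.07 and 36.0 against 90.4 and 91.0). The others were a further region near Mrpl45, 12 kb away (23.2 and 14.1 against 63.5 and 82.0), the Mrps12 promoter and a region in Mrpl14 (40.9 and 29.9 against 73.8 and 77.5). Mrpl45 thus had 1 region among the 5 of each direction. For MED24 the lower regions also included one in Ndufb4 (95.0 and 91.5 against 48.9 and 25.3), one in Mrps31 (98.6 and 98.1 against 70.0 and 67.3) and one 0.857 kb from Mrps24 (93.5 and 91.3 against 66.0 and 65.5). The higher ones lay 1.35 kb from Ndufb4 (37.1 and 52.0 against 89.3 and 91.8), in Mrpl19 (45.9 and 44.4 against 82.9 and 83.1), near Ndufb6 (48.7 and 16 against 83.6 and 85.6), near Mrps9 and 16.5 kb from Mrpl33 (73.4 and 69.3 against 98.9 and 99.1).

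Genes that work with these were taken from lists written with earlier results of these data known. Over all assigned regions, the shares to read their counts against were 17.0% gained and 6.53% lost for MED1 and 15.8% gained and 8.30% lost for MED24. Of the listed mitochondrial translation genes that are not named Mrpl or Mrps, 13 of 15 promoters were called in all 4 MED1 libraries and 14 in all 4 MED24 libraries. The shares over all genes with a window were 44.0% and 41.7%. Their 39 MED1 regions held 4 gained and 0 lost, and their 38 MED24 regions 1 and 1. Complex I assembly genes without an Nduf name had 38 regions for each protein, of which 4 were gained and 7 lost for MED1 (10.5% and 18.4%) and 3 gained and 9 lost for MED24 (7.89% and 23.7%). Nubpl, an iron-sulfur carrier for complex I, had 6 and 9 of these losses. Ecsit, another assembly gene, had MED1 over its promoter at 30.0 and 41.0 at 0 h and no call at 2 h, and no MED24 call. For the remaining respiratory complexes the regions gained and lost for MED1 were 0 and 0 of 7 for complex II, 1 and 0 of 13 for complex III, 2 and 2 of 22 for complex IV and 4 and 0 of 32 for complex V. For MED24 they were 0 and 1 of 6, 1 and 0 of 10, 1 and 2 of 24 and 2 and 0 of 29. Complexes II, III, IV and V had 3, 5, 8 and 14 promoters with a window. MED1 was called over all of these in all 4 libraries, and MED24 over 3, 3, 6 and 13. Frequent promoter calls are therefore not particular to the members. A list of 12 regulators of these genes, such as the factors Nrf1 and Gabpa, had 5 gained and 1 lost of 52 MED1 regions and 6 and 2 of 52 MED24 regions. Ppargc1a, a coactivator of mitochondrial genes in other tissues, had no promoter peak in any library.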

How the data were processed

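MED1 and MED24 ChIP-seq peak lists of 2 clones at 0 h and 2 h of 4OHT were used, 8 lists in all; 4 input libraries were not analysed here. Per the submitters' processing notes, Bowtie2, bedtools, MACS2 and mm10 were used; their versions and settings and the read depth are not stated in the labels or files, and peaks are listed per sample. Per the file headers and values deposited by the authors, the MED1 lists hold a score, a fold enrichment (a ratio), −log10 p, −log10 q and a summit, and the MED24 lists hold a score alone. The MED1 score is 10 times −log10 q rounded down in 100% of rows, and the lowest deposited score is 20 in each list.

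Peaks were merged per protein (1 bp overlap), given to the nearest RefSeq gene span within 100 kb (a tie with a member counts as a member region: 51 of the 300 MED1 and 55 of the 302 MED24 regions) and ranked within each library. Groups were compared by the two-sided exact permutation test over libraries at a threshold of 0.05. Same-named clones pair the libraries, per the labels, and with 2 pairs the smallest paired p is 0.5. Lists of genes, members and named cases were chosen with earlier results of these data known; named are, per protein, up to 6 genes with the most gained or lost regions, the 5 highest and 5 lowest promoters, the 5 widest shifts each way and the top 2 promoters per role. Alternatives were a score of at least 100, the 10000 highest ranked peaks, windows of 250 bp around summits or centres, 20 kb, no shared regions, distances to starts, promoters of 1 kb, medians, ranks by fold enrichment, each library left out and the replicate block. Python 3.11.15, pandas 2.3.3, numpy 2.4.6 and scipy 1.17.1 were used, and the code was tested on simulated peak lists. Details of 1 member gene and of 1 neighbouring gene are not reported here; the member stays in the counts.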

Additional observations from a re-analysis of the deposited data

Results flagged for a closer look

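Of the 12 summary values screened for opposite directions in the 2 proteins, 1 was flagged. The median promoter percentile of large-subunit genes was lower at 2 h in both clones for MED1, by -1.32 points (82.8 and 83.3 at 0 h, 81.1 and 82.4 at 2 h, over 38 promoters), and higher in both clones for MED24, by 4.27 points (68.6 and 62.7, then 69.4 and 70.4, over 41 promoters). Promoters of all genes moved in the same 2 directions. The mean percentile of all retained promoter regions changed by -2.82 points for MED1 and 4.15 for MED24, each with both clones alike. The opposite directions are thus not particular to large-subunit genes. The difference between the proteins was not tested.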

How the results depend on the processing

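With 2 libraries a group no comparison can pass the threshold, so only direction and size are followed here. The lower MED1 percentile of retained member regions kept its direction under all 14 alternatives, from -15.2 to -2.40, and the higher number of MED24 member regions called under all 11, from 2.5 to 26. Taking the 10000 highest ranked peaks turned the MED1 difference in member regions called to -15 and the MED24 difference in member promoters with a peak to -2.5, and gave 9 gained and 18 lost MED1 regions and 17 gained MED24 regions; that setting holds fewer peaks by construction. The MED24 mean percentile, -0.758 as reported, turned to 1.25 with a score of at least 100, 1.45 with distances to starts, 0.754 as a median and 0.0599 when ranked among retained regions, a setting chosen after seeing the data; the cause was not tested. With the replicate block, that is counted within each clone and averaged, gains were 54 for MED1 and 53 for MED24 and losses 35 and 36, since 1 pair of libraries sufficed, and the other paired values kept their direction (19 and 17 regions called, paired exact p = 0.5 each). With each library left out in turn, MED1 gains ran from 34 to 52 and losses from 12 to 30, MED24 gains from 29 to 54 and losses from 15 to 32, the MED1 promoter difference from -4.5 to 1.5 (0 without 0 h clone a, 1.5 without 2 h clone b) and the MED24 mean percentile difference from -3.11 to 0.529, since 3 lists make different merged regions and classes. Read depth is unknown, so weak peaks near the lowest deposited score cannot be weighed by counts.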
